A study of Mus musculus with 9 samples.

Results

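The 37 genes described here are protein-coding genes that are known to be imprinted in the mouse. They were chosen by name from a list of gene symbols, and 37 of 37 were found among the 35896 genes of the deposited transcript tables. Poly-A RNA was sequenced from E14, an established mouse embryonic stem cell line, in 3 groups of 3 libraries that the study describes as paired biological replicates. Control cells with LIF2i stayed in self-renewal medium, which contains the cytokine LIF, the MEK inhibitor PD0325901 at 1 µM and the glycogen synthase kinase 3 beta inhibitor CHIR99021 at 1 µM. Control cells without LIF2i were kept for 72 h in medium from which these agents were removed, so that they differentiated spontaneously. CK666 cells without LIF2i spent the same 72 h in that medium with 80 µM CK666, an inhibitor of the Arp2/3 complex, which builds branched actin networks. CK666 was dissolved in DMSO. Whether control cultures were given this solvent is not stated, so drug and solvent cannot be told apart. All groups are the same line grown with serum on gelatin, and the design asks what Arp2/3 activity contributes when these cells leave self-renewal.

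An imprinted gene is transcribed mainly or wholly from the copy inherited from the mother or from the copy inherited from the father. In many cases this follows DNA methylation marks laid down in the germ line at an imprinting control region. After fertilisation these marks are kept by DNA methyltransferases and by zinc-finger proteins such as ZFP57, which binds its recognition letters when they are methylated. Many imprinted genes control growth, the placenta, metabolism or behaviour, and they lie in clusters that share a control region. The libraries hold total RNA per gene and do not separate the parental copies, so a higher or lower level says nothing here of whether a gene was imprinted in these cells. All 37 genes are annotated as protein-coding, and 15 of them lie on chromosome 7, 5 each on chromosomes 2 and 6, and the rest on 8 other chromosomes.

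Promoter windows were examined for ZFP57's core letters TGCCGC, which several control regions contain, and 5 of them are shown. Of the 37 genes, 31 had a 300-base window in the RefSeq table (GRCm38.p6), from 250 bases before to 50 bases after a transcript start, and in 26 of these the start lay within 250 bases of that of the gene's most abundant transcript. TGCCGC was searched on both strands and reads GCGGCA on the other one. It was present in 10 of the 31 windows (32.3%), against 11.6% of all 32851 windows, and at least 2 copies were present in 2 windows (6.45%), against 1.53% of all windows. The median number of CpG dinucleotides was 17 in the 31 windows and 7 in all windows, so the windows differ in base composition as well. Methylation was not measured, and a match is only a run of letters. The windows follow from 5′ to 3′ on the gene's strand, with the matches in capitals. Shown are the called genes with the 3 largest rises and the 2 largest falls upon withdrawal, out of the 26 whose window lies at the start of the most abundant transcript. They are Magel2 (chr7:62376729-62377028, plus strand), Nnat (chr2:157559828-157560127, plus strand), Snrpn (chr7:60005150-60005449, minus strand), Plagl1 (chr10:13090582-13090881, plus strand) and Slc22a18 (chr7:143473539-143473838, plus strand), and the first and the last have no match.
Magel2: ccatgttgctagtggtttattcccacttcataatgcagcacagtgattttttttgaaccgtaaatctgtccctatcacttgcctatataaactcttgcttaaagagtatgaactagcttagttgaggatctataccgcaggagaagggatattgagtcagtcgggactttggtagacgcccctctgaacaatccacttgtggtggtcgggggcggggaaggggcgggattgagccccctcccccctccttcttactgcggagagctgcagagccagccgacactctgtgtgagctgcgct
Nnat: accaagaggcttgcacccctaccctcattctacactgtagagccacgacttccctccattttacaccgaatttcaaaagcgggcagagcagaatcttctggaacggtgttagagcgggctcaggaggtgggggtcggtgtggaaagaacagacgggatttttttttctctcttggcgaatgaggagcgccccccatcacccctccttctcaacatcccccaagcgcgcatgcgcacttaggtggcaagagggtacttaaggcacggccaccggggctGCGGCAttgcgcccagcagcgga
Snrpn: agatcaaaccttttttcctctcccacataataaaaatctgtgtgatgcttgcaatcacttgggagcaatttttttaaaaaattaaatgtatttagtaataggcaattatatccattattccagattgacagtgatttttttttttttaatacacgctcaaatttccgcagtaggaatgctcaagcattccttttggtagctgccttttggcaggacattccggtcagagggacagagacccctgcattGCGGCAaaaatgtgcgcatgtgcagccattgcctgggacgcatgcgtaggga
Plagl1: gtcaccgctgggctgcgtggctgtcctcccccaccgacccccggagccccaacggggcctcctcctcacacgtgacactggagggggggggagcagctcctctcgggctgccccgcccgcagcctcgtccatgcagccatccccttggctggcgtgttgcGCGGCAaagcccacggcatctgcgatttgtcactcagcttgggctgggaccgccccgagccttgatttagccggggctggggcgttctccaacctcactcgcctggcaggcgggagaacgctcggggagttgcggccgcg
Slc22a18: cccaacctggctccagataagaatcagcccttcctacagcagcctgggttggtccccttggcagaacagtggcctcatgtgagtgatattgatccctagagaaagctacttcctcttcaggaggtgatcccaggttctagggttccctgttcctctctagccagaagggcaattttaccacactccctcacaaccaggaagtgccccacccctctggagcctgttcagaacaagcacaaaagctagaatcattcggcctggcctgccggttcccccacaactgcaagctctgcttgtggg

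Library totals ran from 16894327 to 22550952 estimated counts, and 3 counts, taken as the floor of detection, equal 0.133 to 0.178 CPM, which are counts scaled to a common library total. This floor uses the raw totals, while the CPM values of genes are also TMM-scaled, so the 2 scales differ slightly. Libraries of replicate 1 stood apart in all 3 groups: they lay on one side of the second principal component (23.1% of the variance), and 15690 to 17605 genes were above 0 in them, against 18166 to 18749 in replicates 2 and 3. Replicate 1 was the highest of its group in all 3 groups for 12 of the 37 genes (32.4%), against 21% of the genes tested, and the lowest for 7 (18.9%), against 23.8%. Grb10, for example, was 2.26, 3.49 and 3.21 times the mean of the other two replicates in the control with LIF2i, the control without LIF2i and CK666. Each group held 1 such library and the test compared libraries of the same replicate number. The summed level of 8 pluripotency markers was 5015 to 5934 CPM with LIF2i, 1431 to 1594 CPM without LIF2i and 1647 to 2019 CPM with CK666, and 7 of the 8 fell upon withdrawal. Pou5f1, the defining factor of these cells, was not among the 7, at 766, 1748 and 1492 CPM with LIF2i and 1064, 1013 and 1179 CPM without.

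Levels of the imprinted genes can be compared with each other in TPM, the deposited abundance that accounts for transcript length. With LIF2i the median over the 37 genes was 17.3 TPM. In that group 5 genes were at 100 TPM or more, 16 from 10 to 100 TPM, 10 from 1 to 10 TPM and 6 under 1 TPM. Cd81 was the most abundant with LIF2i (342 ± 23.6 TPM, SD, n = 3). Impact (196 ± 159 TPM) and Gnas (178 ± 13.5 TPM) came next and did not differ beyond their spread. By group mean, the order without LIF2i was Gnas (341 ± 49.8 TPM), Snrpn (300 ± 98.1 TPM), Impact (244 ± 181 TPM) and Cd81 (198 ± 21.3 TPM). With CK666 it was Gnas (340 ± 68.7 TPM), Impact (292 ± 59.6 TPM) and Snrpn (215 ± 123 TPM). Neither order held in replicate 1. There Impact and Snrpn were at 447 and 412 TPM without LIF2i, above Gnas at 284 TPM, and at 352 and 357 TPM with CK666, above Gnas at 307 TPM. Magel2, Rasgrf1, Rtl1 and Dcn held the lowest places with LIF2i, each with a mean of 0.13 TPM or less.

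**Figure D1:**
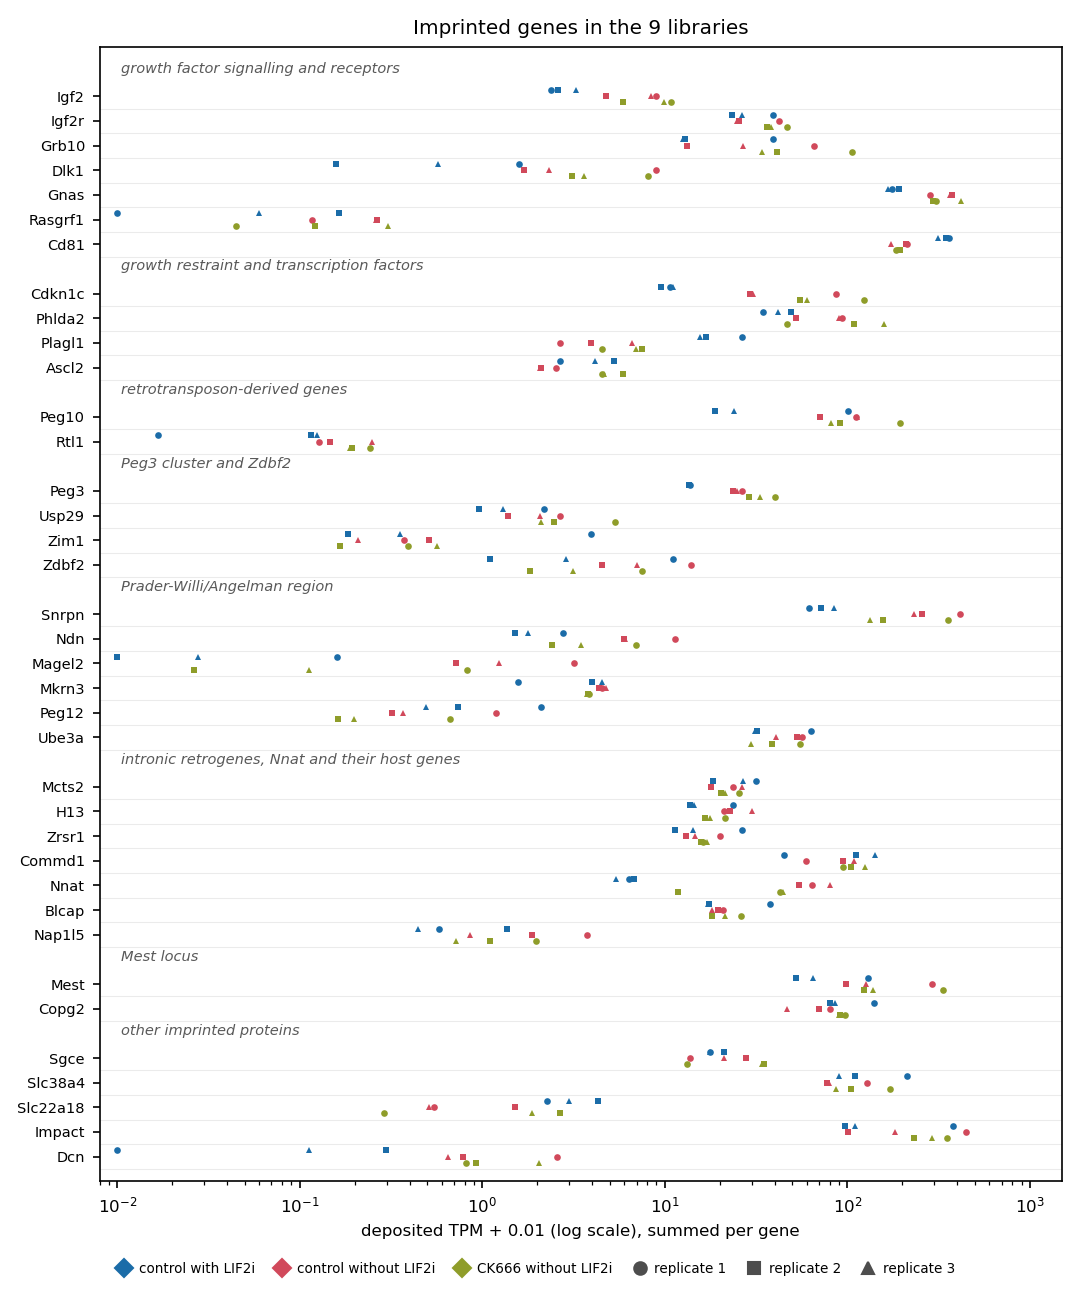
Deposited TPM of the 37 imprinted genes, summed over transcripts, with 0.01 added for the log axis. Each point is a library, coloured by group and shaped by replicate number, and genes are ordered by role. Nnat, Snrpn and Cdkn1c are higher in every library without LIF2i than in every library with it, and Cd81 and Plagl1 are lower.

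Upon LIF2i withdrawal 14 of the 37 genes rose and 5 fell. Magel2, Nnat, Dlk1, Dcn and Cdkn1c rose most, while Plagl1 and Slc22a18 fell most. Over 21 alternative settings the log2 fold change ran from 3.19 to 3.99 for Nnat, from 1.25 to 6.71 for Magel2, from 1.41 to 3.27 for Dlk1, from 0.96 to 4.83 for Dcn and from 1.77 to 2.49 for Cdkn1c. It ran from -2.59 to -1.67 for Plagl1 and from -2.25 to -1.19 for Slc22a18. The values nearest 0 of Magel2, Dlk1, Dcn and Slc22a18 came with limma on log2(TPM + 1), a scale that understates the change of low genes, and those of Cdkn1c and Plagl1 came without replicate 1 libraries. The genes were tested with edgeR's quasi-likelihood test with the replicate number as a block, and a gene was called at an adjusted p under 0.05 over the 14648 genes tested. All 37 passed the expression filter. Of all genes tested 40.7% were called, 21.1% raised and 19.7% lowered. The median log2 fold change was 0.50 over the 37 genes and 0.01 over all genes tested. In 12 of the 37 genes all 3 libraries without LIF2i were above all 3 with LIF2i and in 5 they were below, against 21.5% and 19.2% of all genes tested. Without all libraries of replicate 1, 2 or 3 the number called was 21, 15 or 13, and without the block it was 14. In bulk RNA, fewer cells of a type and less RNA per cell cannot be told apart, here and below.

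Among the growth factors, receptors and signal transducers, 3 of 7 genes rose upon withdrawal and Cd81 fell (57.1% called, against 40.7% of all genes). Igf2, the fetal insulin-like growth factor, stood at 5.45, 2.88 and 4.5 CPM with LIF2i, at 12.4, 7.01 and 16.2 CPM without LIF2i and at 18.3, 9.85 and 19.2 CPM with CK666, in replicate order 1 to 3 as for all values below. Its 3 libraries without LIF2i were all above the 3 with LIF2i, and the log2 fold change was 1.44 ± 0.21 (SE, adjusted p = 6.8e-04). Of Igf2's 31-base words, 61.9% are shared with the overlapping gene Gm49394, so the division of reads between them is an estimate. Dlk1, a membrane protein related to the Notch ligands, stood at 0.59, 0.209 and 0.304 CPM with LIF2i, at 5.84, 1.71 and 2.59 CPM without LIF2i and at 8.01, 3.34 and 3.24 CPM with CK666. It was near the floor with LIF2i and clearly above it in every library without, with a log2 fold change of 3.14 ± 0.39 (SE, adjusted p = 2.8e-04), and replicate 1 was the highest of each group. Gnas, the stimulatory G protein alpha subunit, stood at 154, 236 and 189 CPM with LIF2i, at 259, 425 and 405 CPM without LIF2i and at 300.5, 339 and 459 CPM with CK666, and its groups with and without LIF2i did not overlap (log2 fold change 0.90 ± 0.15 SE, adjusted p = 0.00149). Cd81, a tetraspanin of the cell surface, stood at 239, 358 and 308 CPM with LIF2i, at 144, 182 and 157 CPM without LIF2i and at 146, 184 and 163 CPM with CK666. It fell in all 3 pairs, by 1.86-fold (log2 fold change -0.89 ± 0.11 SE, adjusted p = 2.1e-04).

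The other 3 of these 7 genes did not pass the test upon withdrawal. Igf2r, the receptor that carries IGF2 to lysosomes, stood at 203, 169 and 181 CPM with LIF2i, at 231, 169.6 and 163 CPM without LIF2i and at 264, 245 and 246 CPM with CK666, with a log2 fold change of 0.02 ± 0.12 (SE, adjusted p = 0.922) upon withdrawal. Grb10, an adaptor that restrains insulin and IGF receptor signalling, stood at 113, 52.4 and 47.3 CPM with LIF2i, at 179, 36.6 and 66.3 CPM without LIF2i and at 332, 108 and 98.4 CPM with CK666. The spread between its replicates was wider than the difference between the control groups (log2 fold change 0.23 ± 0.21 SE, adjusted p = 0.415). Without the control without LIF2i replicate 2 the log2 fold change was 0.53 and was called (adjusted p = 0.0355), as it was without all libraries of replicate 2 (0.58, adjusted p = 0.0451), and it was 0.04 without those of replicate 1. Rasgrf1, an exchange factor for Ras, was between 0 and 0.648 CPM in the 9 libraries.

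Of the 4 genes that restrain growth or act as transcription factors, 2 rose and 1 fell (75% called, against 40.7% of all genes). Cdkn1c, which encodes the cyclin-dependent kinase inhibitor p57, stood at 7.91, 7.58 and 6.74 CPM with LIF2i, at 62.6, 21.5 and 26.9 CPM without LIF2i and at 100.5, 42.5 and 46.8 CPM with CK666. It rose 4.44-fold (log2 fold change 2.15 ± 0.25 SE, adjusted p = 2.1e-04), with no overlap between the control groups. Of its exonic bases 30.7% overlap Gm44732 on the opposite strand, and whether counting used strand is not given in the sources used here. Phlda2, a small lipid-binding protein that limits placental growth, stood at 5.41, 16.5 and 16.6 CPM with LIF2i, at 23.2, 19.7 and 31 CPM without LIF2i and at 15.4, 39.6 and 49.99 CPM with CK666, and rose by 1.11 ± 0.32 on the log2 scale (SE, adjusted p = 0.0215). This call was lost without the control with LIF2i replicate 1 or 3, and the adjusted p reached 0.21 over 21 alternative settings.

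Plagl1, a zinc-finger transcription factor also known as Zac1, stood at 56.8, 29.4 and 26.5 CPM with LIF2i, at 7.91, 5.97 and 12.1 CPM without LIF2i and at 9.05, 8.89 and 12.4 CPM with CK666. It fell 4.37-fold (log2 fold change -2.13 ± 0.32 SE, adjusted p = 7.3e-04), and each library without LIF2i was below each one with it. Ascl2, a basic helix-loop-helix factor needed for the placenta, stood at 2.16, 5.02 and 3.89 CPM with LIF2i, at 2.12, 2.13 and 1.46 CPM without LIF2i and at 4.08, 6 and 4.25 CPM with CK666. The control groups did not overlap, replicate 1 was nearly level and replicates 2 and 3 were lower without LIF2i, and the difference was not called (log2 fold change -0.90 ± 0.36 SE, adjusted p = 0.0745). It was called without replicate 1 of the control with LIF2i (adjusted p = 0.0154), of the control without LIF2i (adjusted p = 0.0459) or of all groups (adjusted p = 0.0102). The summed level of 9 trophoblast markers, which share a tissue with Ascl2 and Phlda2, was 78.7 to 144 CPM with LIF2i, 20.2 to 32.0 CPM without and 20.6 to 24.6 CPM with CK666. Tead4 carried most of that sum with LIF2i and fell (log2 fold change -3.72 ± 0.21 SE, adjusted p = 4.5e-06). Of the 6 markers tested 1 rose and 2 fell (50% called, against 40.7% of all genes), with a median log2 fold change of 0.67. Cdx2 and Plac1 were at 0.917 CPM or less in every library, and the part of such cells in the values of Ascl2 and Phlda2 was not tested.

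Of the genes derived from retrotransposons, Peg10, which is required for placental development, stood at 389, 103 and 121 CPM with LIF2i, at 452, 352 and 546 CPM without LIF2i and at 837, 456 and 389.5 CPM with CK666. It rose in all 3 pairs (log2 fold change 1.40 ± 0.34 SE, adjusted p = 0.011), but the control with LIF2i replicate 1 lay above the control without LIF2i replicate 2, so the groups overlapped. The call was lost without the control with LIF2i replicate 2 or 3, without the control without LIF2i replicate 2 and without the block, with adjusted p up to 0.14. Rtl1, the other gene of this origin, was between 0 and 1.08 CPM in all libraries and was not called. Sgce, the epsilon-sarcoglycan gene that starts next to Peg10 on the opposite strand, stood at 15.2, 24.8 and 19.9 CPM with LIF2i, at 12, 29.4 and 21.9 CPM without LIF2i and at 12.7, 37.9 and 35.4 CPM with CK666, with a log2 fold change near 0 (adjusted p = 0.999).

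In the Peg3 cluster on chromosome 7, Peg3 rose and its neighbours Usp29 and Zim1 were not called. Peg3, a zinc-finger protein of growth and maternal behaviour, stood at 69.7, 93.3 and 86.7 CPM with LIF2i, at 140.5, 150.1 and 151 CPM without LIF2i and at 223, 188 and 206 CPM with CK666. The 3 groups did not overlap, and the log2 fold change upon withdrawal was 0.83 ± 0.13 (SE, adjusted p = 0.00112). Usp29, a ubiquitin protease gene that starts next to Peg3 and runs the other way, stood at 4.18, 3.19 and 3.46 CPM with LIF2i, at 7, 3.94 and 4.59 CPM without LIF2i and at 9.86, 6.91 and 5.75 CPM with CK666 (log2 fold change 0.49 ± 0.26 SE, adjusted p = 0.163 upon withdrawal). Zim1, a zinc-finger gene of the cluster, was between 0.393 and 1.46 CPM. Zdbf2, a DBF-type zinc-finger gene on chromosome 1, varied more between replicates than between groups: it stood at 52.3, 4.6 and 5.95 CPM with LIF2i, at 29.9, 11.3 and 41.2 CPM without LIF2i and at 11.8, 1.58 and 19.3 CPM with CK666 (log2 fold change 0.79 ± 0.75 SE, adjusted p = 0.442 upon withdrawal). Zdbf2 was called upon withdrawal with limma on log2(TPM + 1) (log2 fold change 0.92, adjusted p = 0.0269) and with an offset for effective length (log2 fold change 1.15, adjusted p = 0.00876), and its log2 fold change ran from 0.03 to 2.004 over 21 alternative settings.

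Of 6 genes of the Prader-Willi/Angelman region of chromosome 7, 3 rose and none fell (50% called, against 40.7% of all genes). Magel2, a regulator of ubiquitin ligases that is lost in Prader-Willi syndrome, had 8, 0 and 1 counts with LIF2i, 182, 46 and 75 counts without and 50, 1 and 6 counts with CK666. Its libraries without LIF2i were all above those with LIF2i (log2 fold change 5.55 ± 0.77 SE, adjusted p = 4.7e-04), although the size of a fold change over so few counts depends on the count added by the model. Ndn, the related protein necdin, stood at 5.75, 4.39 and 4.8 CPM with LIF2i, at 24.9, 15.9 and 15.9 CPM without LIF2i and at 16, 6.51 and 8.88 CPM with CK666, and rose 3.72-fold (log2 fold change 1.90 ± 0.23 SE, adjusted p = 2.1e-04). Snrpn, which encodes the splicing protein SmN, stood at 62.2, 102 and 112 CPM with LIF2i, at 435, 329 and 296 CPM without LIF2i and at 398, 206 and 166 CPM with CK666, and rose 3.68-fold (log2 fold change 1.88 ± 0.34 SE, adjusted p = 0.00278). Of Snrpn's 31-base words 34.5% are shared, with Gm38393 (23.7%), Gm5802 and Snurf as the leading partners. With Snrpn, Snurf and Gm38393 summed, an alternative chosen after seeing the data, the log2 fold change was 1.86 (adjusted p = 0.00174). Without all libraries of replicate 2 the Snrpn call was lost (adjusted p = 0.058).

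The other 3 genes of the region were not called upon withdrawal. Mkrn3, a ring-finger protein linked to the timing of puberty, was between 2.16 and 8.31 CPM, with the lowest value in the control with LIF2i replicate 1. Peg12, related to the Frat regulators of Wnt signalling, stood at 3, 1.46 and 0.911 CPM with LIF2i, at 1.78, 0.571 and 0.648 CPM without LIF2i and at 1.04, 0.283 and 0.335 CPM with CK666, and was lower without LIF2i in all 3 pairs (log2 fold change -0.87 ± 0.50 SE, adjusted p = 0.197). Ube3a, the ubiquitin ligase of Angelman syndrome, which is imprinted in neurons, stood at 221, 119 and 141 CPM with LIF2i, at 168, 151 and 144 CPM without LIF2i and at 209, 126 and 121 CPM with CK666, with a log2 fold change near 0 (adjusted p = 0.995). The 3 genes that rose and Peg12 lie within the same region, at positions 59982495 to 62464510 of GRCm38.

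**Figure D2:**
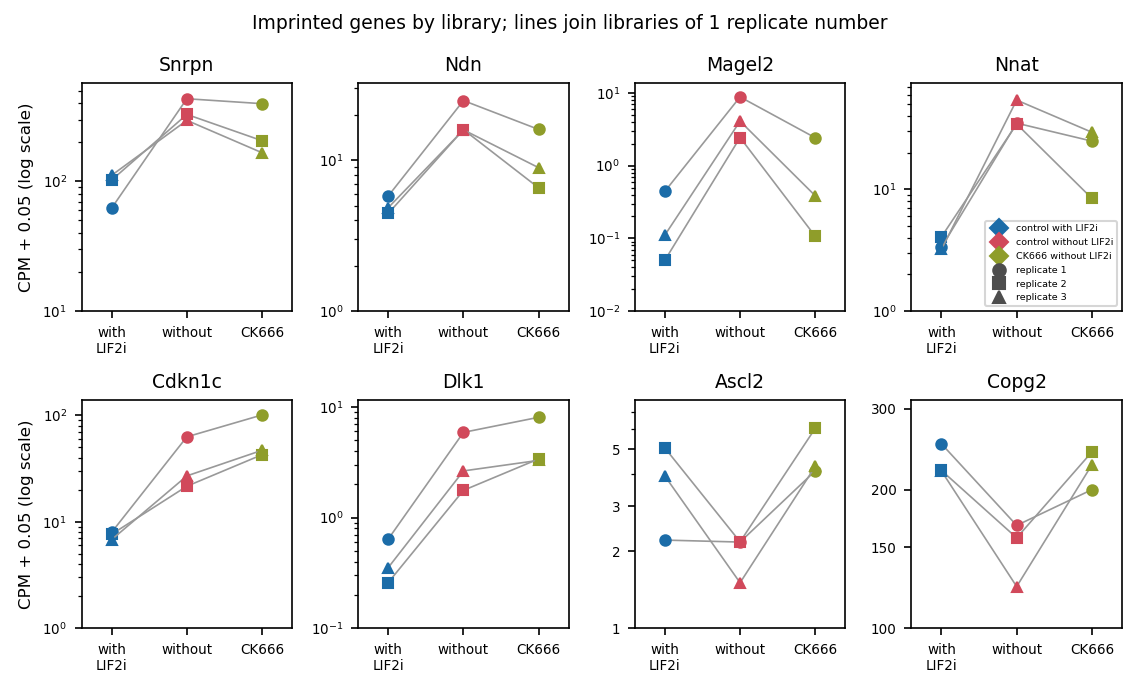
CPM of 8 imprinted genes in the 9 libraries, with 0.05 added for the log axis. Points are libraries, coloured by group and shaped by replicate number, and grey lines join libraries of the same replicate number. Snrpn, Ndn, Magel2 and Nnat are lower with CK666 than in the control without LIF2i in all 3 pairs, and Cdkn1c, Dlk1, Ascl2 and Copg2 are higher, of which the Magel2 difference alone was called.

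Several imprinted genes lie inside an intron of a host gene. In 3 of the 4 pairs described here 1 gene rose upon withdrawal while its partner was not called (Nnat in Blcap, Mcts2 in H13 and Nap1l5 in Herc3), and whether the partners differed was not tested. Nnat, a small membrane proteolipid of neurons and endocrine cells that lies within Blcap, stood at 3.29, 4.03 and 3.16 CPM with LIF2i, at 35, 34.4 and 54.1 CPM without LIF2i and at 24.9, 8.38 and 29.4 CPM with CK666. It rose 11.3-fold (log2 fold change 3.49 ± 0.38 SE, adjusted p = 1.5e-04), and every library without LIF2i was over 8 times the highest library with it. Blcap, its host, read from the opposite strand, stood at 31.6, 25.1 and 23.3 CPM with LIF2i, at 23.3, 22.1 and 22.4 CPM without LIF2i and at 28.9, 22.6 and 23.9 CPM with CK666 (log2 fold change -0.23 ± 0.14 SE, adjusted p = 0.243 upon withdrawal). In TPM, Nnat went from below its host with LIF2i (6.39, 6.78 and 5.38 against 37.9, 17.4 and 17.3) to above it in each library without LIF2i (63.6, 54.6 and 80.3 against 20.9, 19.5 and 18.2).

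Mcts2 is a retrogene, a reverse-transcribed copy of Mcts1, inside H13. Mcts2 stood at 12.4, 10.2 and 14 CPM with LIF2i, at 9.5, 8.88 and 13.3 CPM without LIF2i and at 11.1, 10.5 and 10.5 CPM with CK666, and the groups overlapped (log2 fold change -0.21 ± 0.20 SE, adjusted p = 0.428). H13, which encodes signal peptide peptidase, stood at 22.2, 19.6 and 20.5 CPM with LIF2i, at 26.4, 30.3 and 40.4 CPM without LIF2i and at 26.1, 24.4 and 23.7 CPM with CK666. It rose by 0.63 ± 0.17 on the log2 scale (SE, adjusted p = 0.0179). This call was lost without replicate 2 or 3 of either control group and with an offset for effective length, with adjusted p up to 0.2. Zrsr1, a retrogene copy of the splicing factor gene Zrsr2 inside Commd1, stood at 38.1, 23.5 and 24.3 CPM with LIF2i, at 28.2, 27.2 and 25.9 CPM without LIF2i and at 24.9, 29.2 and 30.9 CPM with CK666. Commd1, a copper and NF-kappa-B regulator, stood at 22.9, 62.8 and 66.4 CPM with LIF2i, at 29.4, 48.1 and 50.6 CPM without LIF2i and at 42.1, 55.4 and 56 CPM with CK666. Neither was called (adjusted p = 0.824 and adjusted p = 0.544), and Commd1 was lowest in replicate 1 of every group. Commd1 was called as lower without the control with LIF2i replicate 1 (log2 fold change -0.42, adjusted p = 0.0262) and without all libraries of replicate 1 (log2 fold change -0.36, adjusted p = 0.0342). Nap1l5, a retrogene inside Herc3, was between 0.540 and 3.71 CPM and was not called. Its host Herc3, a ubiquitin ligase gene that is no member of the list, rose 1.87-fold (log2 fold change 0.90 ± 0.16 SE, adjusted p = 0.00172).

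**Figure D3:**
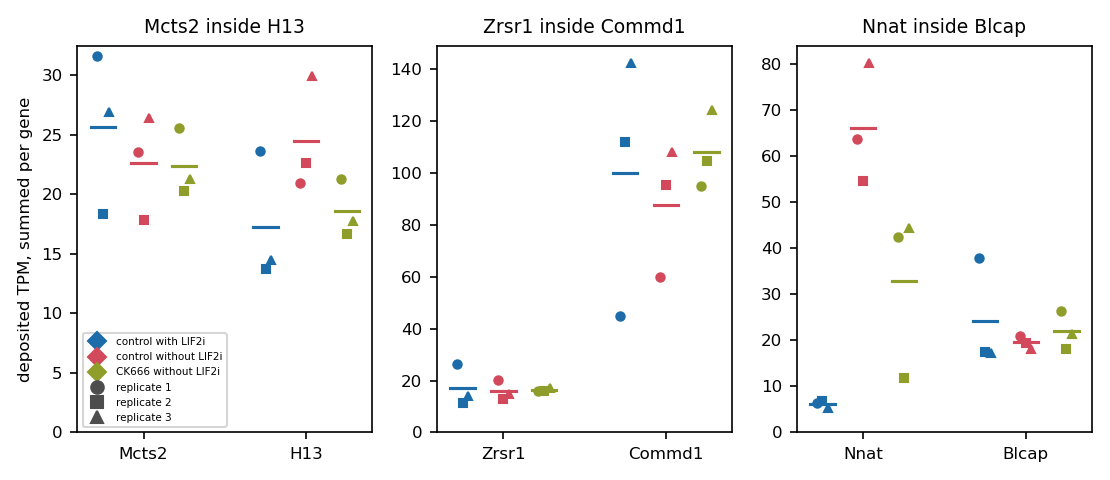
Deposited TPM of 3 inner genes and their host genes. Points are libraries, shaped by replicate number, and bars are group means, with colours for the 3 groups. Nnat moves from 5.38 to 6.78 TPM with LIF2i to 54.6 to 80.3 TPM without, while H13, Blcap, Mcts2, Zrsr1 and Commd1 overlap between groups.

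At the Mest locus on chromosome 6 the 2 genes, which overlap at their ends on opposite strands, changed in opposite directions. Mest, a hydrolase-like protein of mesoderm, stood at 181, 83 and 108 CPM with LIF2i, at 426, 169 and 206 CPM without LIF2i and at 499, 204 and 229 CPM with CK666. It rose in all 3 pairs, 2.09-fold (log2 fold change 1.06 ± 0.11 SE, adjusted p = 1.2e-04), but the groups overlapped, and replicate 1 was the highest in each. Without the block its adjusted p was 0.12. Copg2, a coat protein of Golgi vesicles, stood at 252, 220.3 and 219.7 CPM with LIF2i, at 167, 157 and 123 CPM without LIF2i and at 200.1, 242 and 227 CPM with CK666, and fell by 0.63 ± 0.14 on the log2 scale (SE, adjusted p = 0.00518). Its relative Copg1, elsewhere on chromosome 6 and not on the list of imprinted genes, fell as well (log2 fold change -0.71 ± 0.11 SE, adjusted p = 7.8e-04). Mest shares 22% of its 31-base words with Copg2. The Copg2 call was lost without all libraries of replicate 3 (adjusted p up to 0.077).

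Of the 5 remaining imprinted genes, Sgce included, 2 transporters fell and Dcn rose (60% called, against 40.7% of all genes). Slc38a4, an amino acid transporter, stood at 335, 278 and 211 CPM with LIF2i, at 232, 171 and 174 CPM without LIF2i and at 302, 223 and 177 CPM with CK666. It fell in all 3 pairs (log2 fold change -0.50 ± 0.12 SE, adjusted p = 0.00871), with overlapping groups, and the call was lost without the control with LIF2i replicate 2 or the control without LIF2i replicate 1 or 2 (adjusted p up to 0.19). Slc22a18, an organic cation transporter next to Phlda2, stood at 1.72, 4.39 and 2.92 CPM with LIF2i, at 0.434, 1.45 and 0.486 CPM without LIF2i and at 0.237, 2.38 and 1.68 CPM with CK666, and fell by 2.02 ± 0.55 on the log2 scale (SE, adjusted p = 0.0169). That call was lost without the control with LIF2i replicate 3 or the control without LIF2i replicate 2 or 3 (adjusted p up to 0.13). Impact, a regulator of translation, stood at 355, 165 and 211 CPM with LIF2i, at 584, 181 and 314 CPM without LIF2i and at 478, 409 and 519.6 CPM with CK666 and was not called (log2 fold change 0.50 ± 0.23 SE, adjusted p = 0.113). It was called without the control without LIF2i replicate 2, CK666 replicate 1 or all libraries of replicate 1 (adjusted p = 0.0487, 0.0195 and 0.0376). Dcn, the matrix proteoglycan decorin, had 0, 7 and 2 counts with LIF2i and 50, 18 and 15 counts without (log2 fold change 3.11 ± 1.05 SE, adjusted p = 0.0397), and this call held in 10 of 21 alternative settings. It was lost without any 1 of the control libraries other than the control with LIF2i replicate 2, and without CK666 replicate 1 or 2 (adjusted p up to 0.14). The summed level of 8 fibroblast markers was 6.07 to 9.39 CPM with LIF2i, 28.8 to 31.2 CPM without and 17.1 to 25.4 CPM with CK666. Of these markers 4 of 5 tested rose, against 21.1% of all genes, Lum, Postn and Prrx1 were at 0.335 CPM or less in every library, and the part of such cells in Dcn was not tested.

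On distal chromosome 7 the neighbouring genes Cdkn1c (positions 143458339 to 143461050), Slc22a18 (143473736 to 143499334) and Phlda2 (143501545 to 143503150) did not move together: the first and the last rose and the gene between them fell. By the allele known to be active from background knowledge, 9 of 22 paternally expressed genes rose and 2 fell, with a median log2 fold change of 0.81, and 4 of 12 maternally expressed genes rose and 3 fell, with a median of -0.08. Of the 3 genes whose active copy depends on tissue or transcript, 1 rose. These counts stand beside 21.1% raised and 19.7% lowered among all genes tested and the medians beside 0.01, and the difference between the lists was not tested.

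**Figure D4:**
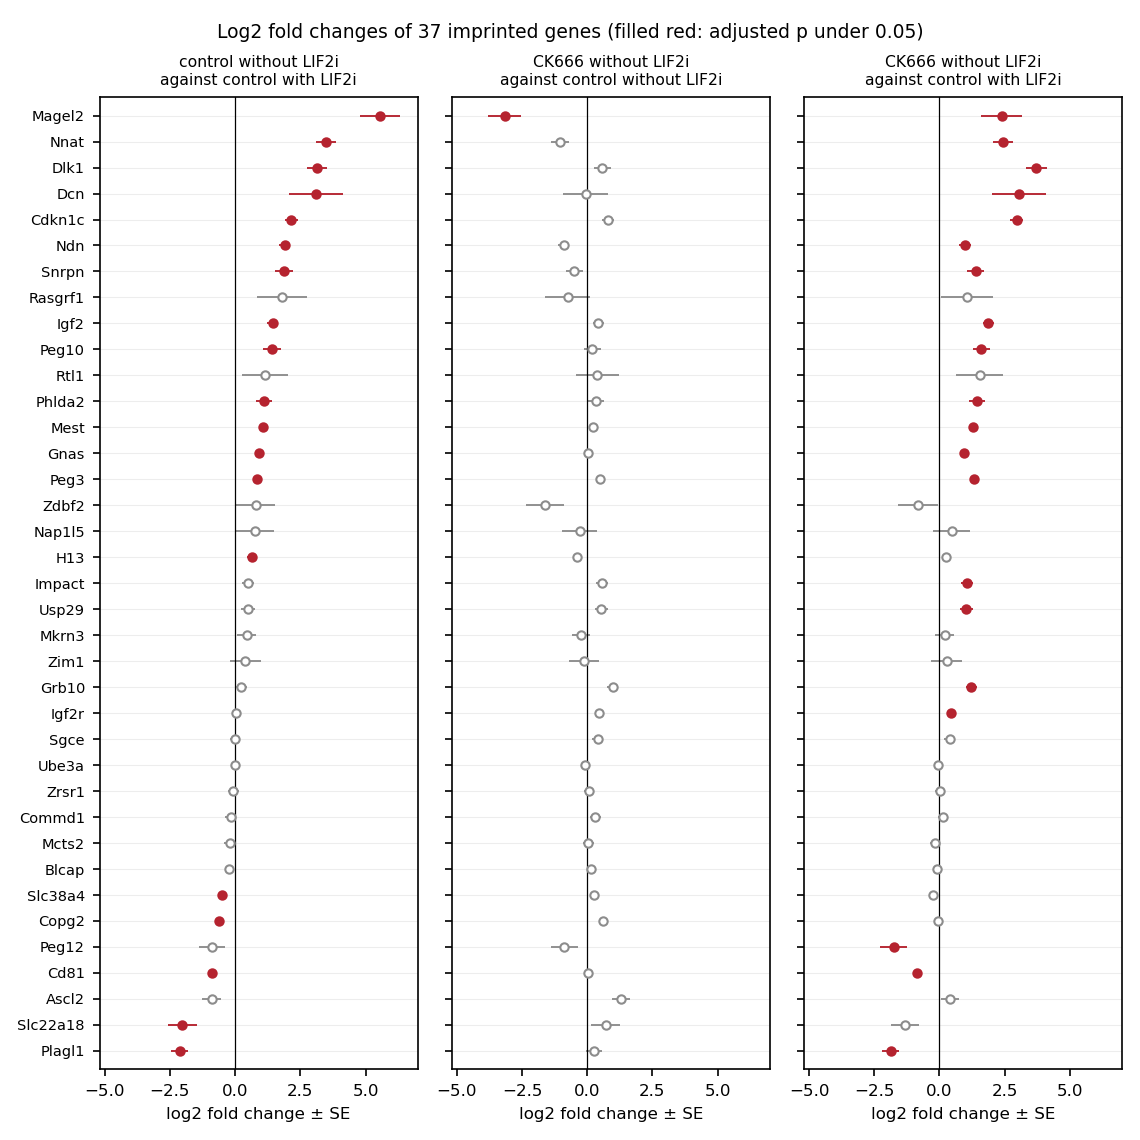
Log2 fold changes of the 37 imprinted genes in the 3 comparisons, with standard errors from edgeR, ordered by the change upon withdrawal. Filled red points have an adjusted p under 0.05. Upon withdrawal 14 genes are raised and 5 lowered, and in the comparison of CK666 with the control without LIF2i 1 gene is lowered and none raised.

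With CK666, against the control without LIF2i, Magel2 fell and 36 of the 37 genes were not called. Of all genes tested 2.05% were called, 1.15% raised and 0.894% lowered. The median log2 fold change was 0.20 over the 37 genes and 0.02 over all genes. At an unadjusted p under 0.05, edgeR counted 10 of the 37 (27%), against 19.7% of all genes. In 4 of the 37 genes all CK666 libraries were above the control without LIF2i and in 3 they were below, against 8.79% and 7.69% of all genes. The number called was 9 without all libraries of replicate 1 (1811 of all genes) and 9 by DESeq2 (1136 of all genes), with 6 genes in common (Ascl2, Cdkn1c, Copg2, Igf2r, Magel2 and Ndn), but 0 without all libraries of replicate 2 and 0 without those of replicate 3. It was also 0 with limma, with the length offset and by edgeR without the block. There 11, 11 and 6 of the 37 had an unadjusted p under 0.05, as had 2407, 2447 and 1251 of all genes. Of all genes, 36, 149 and 0 were called in these fits, 8 without all libraries of replicate 2 and 0 without those of replicate 3. Besides the 6 genes in common named above, Grb10, Impact, Nnat, Peg3, Phlda2 and Snrpn were called in 1 to 4 of the 21 alternative settings. This comparison and the one above share the control libraries without LIF2i, and their values are not independent.

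Magel2 had 182, 46 and 75 counts in the control without LIF2i and 50, 1 and 6 counts with CK666, and the groups did not overlap. The log2 fold change was -3.17 ± 0.63 (SE, adjusted p = 0.0411), lower in 3 of 3 pairs. It ran from -4.17 to -0.99 over 21 alternative settings, in 11 of which Magel2 was called. CK666 replicate 2, with 1 count, lay under the floor of detection. The adjusted p was 0.0714 to 0.25 without the control with LIF2i replicate 3, the control without LIF2i replicate 2 or 3, or CK666 replicate 2 or 3. It was 0.603 without the block, 0.000331 by DESeq2 and 0.00619 without all libraries of replicate 1. Of the 6 genes of the Prader-Willi/Angelman region Magel2 alone was called, and all 6 had fitted log2 fold changes below 0 with CK666, from -3.17 to -0.07, as had 48.3% of all genes. Ube3a (log2 fold change -0.07 ± 0.15 SE, adjusted p = 0.835) was higher with CK666 in pair 1 and changed sign in 4 of 21 alternative settings. Ndn was lower in each pair (log2 fold change -0.90 ± 0.22 SE, adjusted p = 0.0631) and Snrpn was as well (log2 fold change -0.50 ± 0.33 SE, adjusted p = 0.446). Nnat, outside the region, was lower in each pair without overlap of the groups (log2 fold change -1.05 ± 0.34 SE, adjusted p = 0.133).

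Other genes were higher with CK666 in all 3 pairs without passing the test. Grb10 had a log2 fold change of 0.98 ± 0.21 (SE, adjusted p = 0.0521), on the values given above, in which replicate 1 is high in each group. Copg2, which had fallen upon withdrawal, was at 200.1, 242 and 227 CPM with CK666 against 167, 157 and 123 CPM in the control (log2 fold change 0.59 ± 0.14 SE, adjusted p = 0.0586), without overlap. Ascl2, at 4.08, 6 and 4.25 CPM against 2.12, 2.13 and 1.46 CPM, did not overlap either (log2 fold change 1.30 ± 0.36 SE, adjusted p = 0.0897). Igf2r (log2 fold change 0.44 ± 0.12 SE, adjusted p = 0.0839) and Peg3 (log2 fold change 0.48 ± 0.13 SE, adjusted p = 0.088) completed the genes whose groups did not overlap upward. Cdkn1c was higher in each pair with overlapping groups (log2 fold change 0.81 ± 0.23 SE, adjusted p = 0.101). Gnas, Cd81, Ube3a, Mcts2 and Zrsr1 had fitted changes within 0.08 of 0 on the log2 scale, with standard errors of 0.11 to 0.20. Zdbf2 was lower in all 3 pairs, and its replicates spread widely (log2 fold change -1.62 ± 0.73 SE, adjusted p = 0.28).

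Against the control with LIF2i, the CK666 cells had 17 of the 37 genes raised and 3 lowered. Of all genes tested 36.9% were called, 19.8% raised and 17.1% lowered, and the median log2 fold change was 0.47 over the 37 genes and 0.01 over all. In 16 of the 37 genes the CK666 libraries were all above those with LIF2i and in 2 all below, against 20.5% and 16.8% of all genes. The largest log2 fold changes were those of Dlk1 (3.71, adjusted p = 1.3e-04), Dcn (3.04, adjusted p = 0.043) and Cdkn1c (2.96, adjusted p = 4.9e-05). Nnat (log2 fold change 2.44, adjusted p = 0.00113), Magel2 (2.38, adjusted p = 0.0404), Snrpn (1.38, adjusted p = 0.0136) and Ndn (0.99, adjusted p = 0.00788) were raised here too. Raised here and not called upon withdrawal alone were Grb10 (log2 fold change 1.21 ± 0.21 SE, adjusted p = 0.00211), Impact (log2 fold change 1.05 ± 0.23 SE, adjusted p = 0.00726), Usp29 (log2 fold change 1.03 ± 0.26 SE, adjusted p = 0.0126) and Igf2r (log2 fold change 0.45 ± 0.12 SE, adjusted p = 0.0136). Plagl1 (log2 fold change -1.88, adjusted p = 0.00159), Cd81 (-0.86, adjusted p = 3.0e-04) and Peg12 (-1.75, adjusted p = 0.0275) were lowered. The number called was 20, 14 or 13 without all libraries of replicate 1, 2 or 3 and 9 without the block, which lost Grb10, Impact, Usp29 and Igf2r. Magel2 kept its call here in 9 of 21 alternative settings, and Peg12 and Dcn in 10 each. The adjusted p reached 0.38, 0.21 and 0.27 for these 3 genes.

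The machinery that keeps and sets imprints changed in several parts upon withdrawal, with 6 of 19 listed genes raised and 5 lowered (57.9% called), against 21.1% raised and 19.7% lowered among all genes tested (40.7% called). The median log2 fold change of the list was -0.01. The list was written from background knowledge. Dnmt3b, a de novo DNA methyltransferase, went from 69.9, 44.4 and 42.8 CPM with LIF2i to 2259, 1018 and 716 CPM without (log2 fold change 4.51 ± 0.26 SE, adjusted p = 5.3e-06), and Dnmt3a, its relative, rose 3.48-fold (log2 fold change 1.8 ± 0.28 SE, adjusted p = 0.0012). Dnmt1, the maintenance methyltransferase, fell by 0.93 ± 0.16 on the log2 scale (SE, adjusted p = 0.00191), and Uhrf1, which brings it to replicated DNA, fell by 1.08 ± 0.12 on the log2 scale (SE, adjusted p = 1.3e-04). Zfp57, the reader of methylated control regions, went from 138, 147 and 195 CPM to 18.9, 38 and 48 CPM (log2 fold change -2.28 ± 0.25 SE, adjusted p = 1.4e-04). Its partner Trim28 was not called (log2 fold change -0.04 ± 0.13 SE, adjusted p = 0.825), nor was Dnmt3l (log2 fold change 0.11 ± 0.44 SE, adjusted p = 0.867). Of the enzymes that oxidise methylated cytosine, Tet2 (log2 fold change -4.25 ± 0.46 SE, adjusted p = 2.8e-04) and Tet1 (log2 fold change -1.65 ± 0.24 SE, adjusted p = 7.2e-04) fell and Tet3 rose (log2 fold change 0.63 ± 0.15 SE, adjusted p = 0.00953). With CK666, Tet3 rose as well, at 55.9, 45 and 60.3 CPM against 37.8, 32.4 and 28.1 CPM (log2 fold change 0.71 ± 0.15 SE, adjusted p = 0.049), as the 1 gene of the 19 called (5.26%, against 2.05% of all genes). By edgeR no gene was called with CK666 without the block or without all libraries of replicate 3, Tet3 included, where 1251 and 1360 genes had an unadjusted p under 0.05. Between CK666 and the control with LIF2i, 5 rose, led by Dnmt3b (3.71), Dnmt3a (2.17) and Tet3 (1.34), and 5 fell, led by Tet2 (-2.86), Zfp57 (-1.98) and Tet1 (-1.42) in log2 fold change (52.6% called, against 36.9% of all genes).

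In IGF and insulin signalling, around Igf2, Igf2r and Grb10, 6 of 11 tested genes rose upon withdrawal and 2 fell (72.7% called, against 40.7% of all genes), with a median log2 fold change of 0.88. Igf1r, the receptor through which IGF2 signals, went from 47.8, 40.5 and 40.9 CPM to 123, 148 and 128 CPM (log2 fold change 1.63 ± 0.17 SE, adjusted p = 1.0e-04). Its substrates Irs1 (log2 fold change 4.44 ± 0.62 SE, adjusted p = 5.6e-04) and Irs2 (log2 fold change 3.29 ± 0.24 SE, adjusted p = 1.7e-05) rose, and the IGF-binding protein Igfbp3 rose 26.8-fold (log2 fold change 4.74 ± 0.18 SE, adjusted p = 1.2e-06). Igfbp4, another binding protein, fell (log2 fold change -2.68 ± 0.71 SE, adjusted p = 0.0218), as did Igf2bp2, an RNA-binding protein named for the Igf2 transcript (log2 fold change -0.58 ± 0.13 SE, adjusted p = 0.00585). With CK666 the log2 fold changes of the 11 ran from -0.83 to 0.39, and each adjusted p was above the threshold. Between CK666 and the control with LIF2i, 6 rose and 3 fell (81.8% called, against 36.9% of all genes), with Igfbp3 (4.52), Irs1 (3.61) and Irs2 (2.91) the highest log2 fold changes and Igfbp4 (-2.96), Igfbp2 (-1.004) and Igf2bp2 (-0.80) the lowest. Of 5 parent or sister genes of the retrogenes and of Copg2, Copg1 alone was called. Mcts1 (log2 fold change 0.27 ± 0.33 SE, adjusted p = 0.549) and Zrsr2 (log2 fold change 0.07 ± 0.24 SE, adjusted p = 0.839) were not, like their copies Mcts2 and Zrsr1.

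A second list of 27 imprinted protein-coding genes outside the 37 had 25 genes in the files and 18 tested, of which 8 rose and 5 fell upon withdrawal (72.2% called, against 40.7% of all genes), with a median log2 fold change of 0.28. Calcr, the calcitonin receptor, had 0, 0 and 1 counts with LIF2i and 325, 214 and 284 counts without (adjusted p = 1.5e-05), and 90, 36 and 169 counts with CK666. Asb4, an ankyrin-repeat protein near Peg10, had 0, 0 and 0 counts with LIF2i and 18, 8 and 15 counts without (adjusted p = 0.00643). Klf14, a transcription factor near Mest, went from 0.246, 0.0523 and 0.0607 CPM to 3.67, 0.986 and 1.78 CPM (log2 fold change 4.10 ± 0.70 SE, adjusted p = 0.00157). Ddc, the decarboxylase gene beside Grb10, went from 36.7, 39.4 and 34.8 CPM to 3.14, 3.22 and 2.32 CPM (log2 fold change -3.68 ± 0.20 SE, adjusted p = 4.0e-06), and Tspan32 (log2 fold change -2.98 ± 0.85 SE, adjusted p = 0.0194) and Qpct (log2 fold change -2.91 ± 0.40 SE, adjusted p = 4.7e-04) fell too. With CK666, Trappc9, which had fallen upon withdrawal (log2 fold change -1.09 ± 0.12 SE, adjusted p = 1.2e-04), was higher at 54.5, 48.4 and 45.7 CPM against 31.6, 31.6 and 26.9 CPM (log2 fold change 0.72 ± 0.12 SE, adjusted p = 0.0261), the 1 gene of the 18 called (5.56%, against 2.05% of all genes). This call too was lost without the block and without all libraries of replicate 3. Between CK666 and the control with LIF2i, 8 rose and 5 fell (72.2% called, against 36.9% of all genes), with Ddc at -4.29, Tspan32 at -4.40, Qpct at -2.56 and Klf14 at 3.50 in log2 fold change. Imprinted non-coding RNAs such as H19 and Meg3, and the genes Zim2 and Zim3, were not analysed here.

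Transcripts of the same gene from different starts or ends are known at several of these loci, and their deposited TPM values are given as a description with no test, since reads shared between transcripts were divided by estimation. Gnas-211, which starts farthest upstream in the Gnas cluster, was at 2.26, 1.59 and 3.14 TPM with LIF2i, 11.4, 11.7 and 11 TPM without LIF2i and 8.93, 11.7 and 18 TPM with CK666. Gnas-208, which starts farther downstream, was far more abundant, at 120.0, 128 and 116 TPM with LIF2i, 172, 263 and 229 TPM without LIF2i and 199, 201 and 283 TPM with CK666. Both were higher in every library without LIF2i than in every library with it. Grb10-207 was at 0, 0 and 0 TPM with LIF2i, 6.85, 3.5 and 8.78 TPM without LIF2i and 3.36, 12.1 and 6.82 TPM with CK666, and the main Grb10-201 was at 38.9, 12.3 and 12 TPM with LIF2i, 58.2, 9.51 and 17.5 TPM without LIF2i and 103, 27.5 and 26.6 TPM with CK666. The short Grb10-207 was listed at 0 in the 3 libraries with LIF2i and above 3 TPM in the other 6.

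H13-203 and H13-206 end before Mcts2, and the longer H13-202, which runs past it, held most of the H13 signal. H13-202 was at 17.1, 9.76 and 9.92 TPM with LIF2i, 16.1, 15.1 and 19.95 TPM without LIF2i and 15.9, 12.5 and 12.9 TPM with CK666. H13-206 was at 1.62, 1.35 and 1.23 TPM with LIF2i, 1.77, 1.51 and 3.08 TPM without LIF2i and 1.27, 1.07 and 1.15 TPM with CK666, and H13-203 was at 0, 1.44 and 0.899 TPM with LIF2i, 0, 3.89 and 3.79 TPM without LIF2i and 1.69, 1.19 and 1.07 TPM with CK666. Neither of these short forms exceeded 3.9 TPM. Their values overlapped between the groups, except that H13-206 was lower in every library with CK666 than in every library of the control without LIF2i. Zdbf2-202, the long form from the upstream start, was at 6.88, 0.414 and 0 TPM with LIF2i, 3.51, 1.08 and 1.47 TPM without LIF2i and 0, 0.116 and 0.205 TPM with CK666. It was lower in all 3 libraries with CK666 than in all 3 of the control without LIF2i, but the other long form, Zdbf2-201, went the other way in replicate 1, at 0, 0.00234 and 0.569 TPM with LIF2i, 0.00358, 0.000334 and 2.97 TPM without LIF2i and 1.31, 0 and 1.94 TPM with CK666. Summed, these 2 forms were at 1.31, 0.116 and 2.15 TPM with CK666 and 3.51, 1.08 and 4.44 TPM in the control without LIF2i, and the groups overlapped. The most abundant Zdbf2 transcript over the 9 libraries, Zdbf2-203, is not in this sum. All transcripts of Zdbf2 together were at 7.515, 1.82 and 3.14 TPM with CK666 and 13.9, 4.52 and 7.07 TPM in the control without LIF2i. Igf2-201, which was chosen after its values were seen, was at 0, 0.142 and 0.0954 TPM with LIF2i, 3.54, 2.02 and 3.5 TPM without LIF2i and 3.48, 2.13 and 4.03 TPM with CK666, so it was at or near 0 with LIF2i and above 2 TPM in every other library.

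Mest-211 (119, 40.3 and 56.7 TPM with LIF2i, 279, 87.2 and 108 TPM without LIF2i and 309, 105 and 121 TPM with CK666) and Snrpn-201 (61.7, 71.9 and 84.2 TPM with LIF2i, 412, 255 and 232 TPM without LIF2i and 357, 157 and 133 TPM with CK666) carried most of the signal of their genes. Plagl1-202 was at 12.2, 5.07 and 4.91 TPM with LIF2i, 2.05, 1.15 and 2.5 TPM without LIF2i and 2.57, 1.58 and 2.35 TPM with CK666, with its highest value in the control with LIF2i replicate 1. Commd1-203, a short form of the 5′ part of the gene, was at 27.8, 46.5 and 70.7 TPM with LIF2i, 31.3, 42.2 and 48.8 TPM without LIF2i and 48.9, 43 and 49.1 TPM with CK666. Blcap-202 was at 28.6, 15.8 and 15.4 TPM with LIF2i, 18.2, 13.5 and 14.6 TPM without LIF2i and 21.6, 15 and 17.2 TPM with CK666. The Mest, Snrpn and Plagl1 forms followed the direction of their genes, and the Commd1 and Blcap forms overlapped between the groups.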

How the data were processed

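Transcript abundance was measured by poly-A RNA sequencing in 9 libraries, 3 per group. Per the file headers, the authors deposited estimated counts and TPM for 119414 transcripts with effective lengths. The deposited estimated counts are not normalised and divide reads that match several transcripts. The deposited TPM values are scaled for length and library total. The submitters' processing notes name FastQC, cutadapt 1.8.1, kallisto and sleuth, and the builds GRCh38 and mm10 without roles. Strand use is not given in the sources used here.

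Transcripts were assigned to genes by identifier with GENCODE M21 (GRCm38): 116640 (97.7%) had a gene, 116073 of them in the same version. The other 2774 held 0.895% to 1.08% of a library's counts and were left out. Estimated counts were summed for 35896 genes and rounded. Genes were tested with edgeR 4.0.16 (R 4.3.3) (robust quasi-likelihood) on TMM-scaled data. Its filterByExpr kept 14648 genes. All 9 libraries entered 1 fit with the replicate number as a block and 4 residual degrees of freedom. P-values were Benjamini-Hochberg adjusted over all genes tested. Standard errors came from the test statistic. The study calls the replicates paired. Deviations from the group means correlated at 0.266 to 0.596 between libraries of the same number, against a median of -0.322 between numbers. Between replicates 2 and 3 of different groups they correlated at 0.189 to 0.263. These values thus mainly set replicate 1 apart and hardly bear on the pairing of replicates 2 and 3. The block was kept because of the paired design. P-values set a group difference against the spread between these libraries that is left after the block. Detection floors reflect counting error alone, because no molecular identifiers mark copies of a molecule.

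The members and gene lists were chosen with earlier results of these data known. The genes named were all 37 members and, from the lists of imprint machinery, other imprinted genes, IGF signalling and parent genes, the called genes with the 3 largest rises and falls per comparison, plus Dnmt1, Uhrf1, Dnmt3l, Zfp57, Trim28, Igf1r, Mcts1 and Zrsr2. Marker lists are given as sums and counts. Herc3 and the markers named singly (Pou5f1, Tead4, Cdx2, Plac1, Lum, Postn and Prrx1) were picked with their values already known. The fit was also run on simulated counts that were given a replicate effect, so that run cannot bear on the pairing. Alternatives were DESeq2 1.42.0, limma 3.58.1 on log2(TPM + 1), other filters and scalings, a length offset, no block, and leaving out libraries. Other marker lists (primitive endoderm, neural progenitor) were summed as well: the 8 primitive endoderm markers summed to 12.8 to 15.8 CPM with LIF2i and 24.8 to 56.8 CPM without, and the 6 neural progenitor markers to 48.8 to 194 CPM with and 17.7 to 76 CPM without.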

Additional observations from a re-analysis of the deposited data

How the results depend on the processing

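Over 21 alternatives per comparison, the 40 called values of the 37 imprinted genes kept their sign, and 25 of the 71 uncalled ones changed sign in at least 1. Upon withdrawal 10 of 19 called genes stayed called in all of them (Cd81, Cdkn1c, Dlk1, Gnas, Igf2, Magel2, Ndn, Nnat, Peg3 and Plagl1). With CK666 the 1 call did not, and against the control with LIF2i 8 of 20 did. In the fits without the replicate block, which the study's paired design calls for, 3509 genes were called upon withdrawal against 5967 with it, 2966 against 5408 between CK666 and the control with LIF2i, and 0 against 300 with CK666, where edgeR gave 1251 genes an unadjusted p under 0.05. Among the 37 genes the counts without the replicate block were 14, 9 and 0. Other alternatives moved the CK666 count: DESeq2 called 1136 genes and 9 of the 37, no filter on low counts 565 and 4, limma on log2(TPM + 1) 36 and 0, and the length offset 149 and 0. With limma and with the length offset, 11 of the 37 had an unadjusted p under 0.05, as had 2407 and 2447 of all genes. Leaving out 1 library or 1 replicate number gave 3099 to 6588 genes and 13 to 21 of the 37 upon withdrawal, 0 to 1811 genes and 0 to 9 of the 37 with CK666, and 2413 to 6129 genes and 13 to 20 of the 37 between CK666 and the control with LIF2i. With CK666 the number of genes called was 1657 without the control with LIF2i replicate 1 and 120 without its replicate 3. It was 152, 5 and 4 without replicates 1, 2 and 3 of the control without LIF2i, and 2 and 30 without CK666 replicates 2 and 3. The lowest gene counts came without all libraries of replicate 3 and the highest without those of replicate 1, in each comparison. Of uncalled values, the Phlda2 change with CK666 ran from -0.024 to 0.83 on the log2 scale when a library was left out. That of Zdbf2 between CK666 and the control with LIF2i ran from -1.90 to 0.43, and was 0.0042 with limma and 0.018 with the length offset. The causes were not tested. Magel2, Dlk1 and Dcn, called upon withdrawal, were under 1 CPM in every library with LIF2i and rest on few counts there.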
